A study of Mus musculus with 3 samples.

Results

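The C/EBP (CCAAT/enhancer binding protein) transcription factor genes were examined in mouse ES cells with reduced NUP153, a protein of the nuclear pore basket. The genes were taken by symbol, and the family was chosen by its measured values, because its member Cebpb was higher in 1 of the knockdowns. Its 6 members, Cebpa, Cebpb, Cebpd, Cebpe, Cebpg and Cebpz, were among 24421 counted genes. Of these members, 5 averaged 10 reads or more over the 3 libraries, as did 16670 of all counted genes, and Cebpe did not. The values of Cebpb in the knockdowns are therefore a description and were not tested.

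C/EBP proteins of the bZIP class pair through a leucine zipper and bind DNA as dimers, with themselves, with each other and with other bZIP proteins. They are best known from adipocytes, hepatocytes, granulocytes and macrophages, and from fibroblasts stimulated by inflammatory cytokines, where they switch on differentiation and acute phase genes. Cebpz carries the family name but encodes a CCAAT-binding protein without a bZIP domain, related to factors of ribosome biogenesis. The name C/EBP zeta is also used for CHOP, which the separate gene Ddit3 encodes.

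The cells were undifferentiated ES cells of the female mouse line EL16.7 (F2:129S1/CastEiJx 129S1), all grown with LIF on γ-irradiated DR4 MEFs, embryonic fibroblasts that serve as a feeder layer. All cultures received lentivirus and 2 days of puromycin at 2 μg/ml. The control carried a scramble shRNA, and NUP153 KD-1 and NUP153 KD-2 each carried a different shRNA against NUP153. Total RNA without ribosomal RNA was sequenced with 50 bp reads, from 1 library per condition, so differences between conditions have no replicate check.

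The counted reads on genes came to 72344726, 85258834 and 69839336 in the control, KD-1 and KD-2 libraries. All series of 3 values below keep this order of libraries. Nup153 itself had 27870, 16451 and 11126 reads, which left 0.504 (KD-1) and 0.371 (KD-2) of the control level after upper-quartile scaling. The ES cell genes Pou5f1, Nanog and Sox2 had 23802 to 61737 reads in every library. Levels are given as upper-quartile scaled CPM, the reads of a gene relative to the size of its library. Summed over 10 ES cell markers, scaled CPM were 4896, 5387 and 3637. By more than 1.5-fold, 1 of these 10 was higher and 2 were lower in KD-2, and 1 was higher and 0 were lower in KD-1. Transcripts of fibroblasts were also present, and 12 fibroblast markers summed to 1383, 647 and 2534 scaled CPM, or 0.468-fold (KD-1) and 1.83-fold (KD-2). Of these markers, 8 of 12 were lower by more than 1.5-fold in KD-1 and 11 of 12 were higher by more than 1.5-fold in KD-2. The 8 macrophage and leukocyte markers summed to 4.15 to 5.15 scaled CPM, and Ptprc, the pan-leukocyte marker CD45, had 6, 6 and 12 reads. In such bulk RNA, more cells of a type and more RNA per cell cannot be told apart, and the part of the feeder cells in the C/EBP values was not tested.

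Promoter sequences are shown for the members that RefSeq pairs with one, 3 of 6 (Cebpa, Cebpb and Cebpg; build GRCm38.p6), because Cebpa and Cebpb were higher in KD-2 while Cebpg was not. Each line is the 250 bases before the RefSeq gene start, 5′ to 3′ on the gene's strand, from chr7:35119043-35119292 (plus strand) for Cebpa, chr2:167688665-167688914 (plus strand) for Cebpb and chr7:35056567-35056816 (minus strand) for Cebpg. The RefSeq start of Cebpg is base 35056566, whereas its GENCODE model starts at base 35056573, so the window takes in the first GENCODE bases. Capitals mark the GC box GGGCGG, the CCAAT box, the TATA box TATAAA and the half-site of the cyclic AMP response element, TGACG, on either strand.
Cebpa: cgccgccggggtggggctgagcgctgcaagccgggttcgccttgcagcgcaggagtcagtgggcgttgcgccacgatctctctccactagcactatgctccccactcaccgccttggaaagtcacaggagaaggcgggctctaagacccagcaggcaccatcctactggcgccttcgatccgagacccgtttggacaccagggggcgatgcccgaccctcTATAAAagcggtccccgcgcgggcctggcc
Cebpb: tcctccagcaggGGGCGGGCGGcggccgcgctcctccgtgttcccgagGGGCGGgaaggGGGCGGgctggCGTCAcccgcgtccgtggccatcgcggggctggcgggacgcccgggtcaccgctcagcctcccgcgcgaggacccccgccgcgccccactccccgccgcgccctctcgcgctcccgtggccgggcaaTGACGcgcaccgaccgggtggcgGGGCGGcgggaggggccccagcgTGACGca
Cebpg: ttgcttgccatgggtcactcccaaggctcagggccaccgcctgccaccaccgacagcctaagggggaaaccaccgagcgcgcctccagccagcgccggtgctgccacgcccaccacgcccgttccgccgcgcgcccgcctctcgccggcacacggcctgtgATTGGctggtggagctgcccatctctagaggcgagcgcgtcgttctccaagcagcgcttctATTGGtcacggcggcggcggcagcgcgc

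The Cebpb promoter was 81.6% G and C and held 5 GC boxes, of which the first pair overlap, and 3 TGACG half-sites. One half-site lay at bases 180 to 176 before the start on the minus strand, the others at bases 53 to 49 and 7 to 3 on the plus strand. The Cebpa promoter was 66.4% G and C, with a TATA box at bases 30 to 25. The Cebpg promoter was 70.8% G and C, with CCAAT boxes at bases 89 to 85 and 28 to 24, both on the minus strand. None of the 3 sequences held the full element TGACGTCA or the palindrome TTGCGCAA, a form that C/EBP dimers bind. Over 32851 RefSeq promoters of the same length, GGGCGG was in 32.7%, CCAAT in 33.85%, TATAAA in 12.4%, TGACG in 17.8%, TGACGTCA in 1.55% and TTGCGCAA in 0.164%. These matches are letters in a window and were not tested for binding.

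Cebpb, Cebpd and Cebpa were each higher in KD-2 than in either other library. Fold changes below are ratios of upper-quartile scaled reads with exact 95% intervals, which cover counting error only and not the spread between cultures. Values in log2 include 0.5 added reads, and both knockdowns are set against the same control library. A difference above 1.5-fold in either direction is called past the fold.

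Cebpb, which encodes the factor known from the acute phase response and early adipocyte differentiation, lies at chr2:167688915-167690418 on the plus strand as 1 exon of 1504 bases. It had 143, 228 and 947 reads in the control, KD-1 and KD-2 libraries, or 2.05, 2.78 and 12.6 scaled CPM. KD-2 stood apart, with KD-1 slightly above control. The ratio was 6.15 (95% interval 5.15 to 7.38) in KD-2 over control, 1.36 (1.10 to 1.69) in KD-1 over control and 4.52 (3.91 to 5.24) in KD-2 over KD-1. In KD-2 against control, 13 of the 16670 genes had a higher log2 fold change than Cebpb, and in KD-1 against control 2198 had. One Cebpb transcript yields several protein isoforms, activating and inhibitory, through alternative translation starts, which read counts per gene do not separate.

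Cebpd, which acts with Cebpb early in adipocyte differentiation and in the acute phase, lies at chr16:15887286-15891031 on the plus strand, also as 1 exon. It had 129, 177 and 704 reads, or 1.85, 2.16 and 9.35 scaled CPM. Its order of libraries was that of Cebpb, but the counting interval of KD-1 over control included 1. The ratio was 5.07 (4.19 to 6.16) in KD-2 over control, 1.17 (0.928 to 1.48) in KD-1 over control and 4.33 (3.66 to 5.13) in KD-2 over KD-1. In KD-2 against control, 24 genes had a higher log2 fold change than Cebpd.

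Cebpa, a factor of adipocytes, hepatocytes and granulocyte precursors that also slows the cell cycle, lies at chr7:35119293-35121928 on the plus strand as 1 exon of 2636 bases. It had 241, 281 and 580 reads, or 3.45, 3.43 and 7.71 scaled CPM. Control and KD-1 did not differ beyond counting error, with a ratio of 0.995 (0.835 to 1.19), and the sign of this difference changed with the scaling. KD-2 was 2.23-fold (1.92 to 2.61) above control and 2.25-fold (1.94 to 2.60) above KD-1. In KD-2 against control, 549 genes had a higher log2 fold change.

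Cebpg, which encodes a C/EBP protein without an activation domain of its own and a partner of ATF4, lies at chr7:35046422-35056573 on the minus strand, 62719 bases from Cebpa. It had 1394, 1284 and 1354 reads, or 19.9, 15.7 and 18.0 scaled CPM. Both knockdowns were below control and KD-1 was the lowest. The ratio was 0.786 (0.728 to 0.849) in KD-1 and 0.902 (0.836 to 0.973) in KD-2, neither past the fold. With library totals as the scaling, the log2 difference of KD-2 was 0.01, so its direction in KD-2 depended on the scaling.

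Cebpz lies at chr17:78919006-78937066 on the minus strand with 16 separate exon stretches. It had 14858, 18905 and 12933 reads, or 213, 231 and 172 scaled CPM, far more than any other member. KD-1 was the highest and KD-2 the lowest. The ratio was 1.09 (1.06 to 1.11) in KD-1 and 0.808 (0.789 to 0.828) in KD-2, and KD-2 over KD-1 was 0.744 (0.728 to 0.761), all within 1.5-fold. These directions held under the planned scalings but turned with the summed ES cell markers as the scale. There the log2 differences from control were -0.02 (KD-1) and 0.12 (KD-2) and KD-2 stood 0.14 above KD-1. The median log2 differences of these markers were 0.18 (KD-1) and -0.25 (KD-2), beside 0.12 and -0.31 for Cebpz under upper-quartile scaling. Their median was not used as a scale.

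Cebpe, which drives the last steps of granulocyte maturation, lies at chr14:54710360-54712174 on the minus strand. It had 0, 1 and 0 reads. A count of 0 allows up to 3 reads, or 0.0429 scaled CPM in control and 0.0399 in KD-2, so Cebpe was not detectable at this depth outside KD-1 and no ratio was formed.

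**Figure D1:**
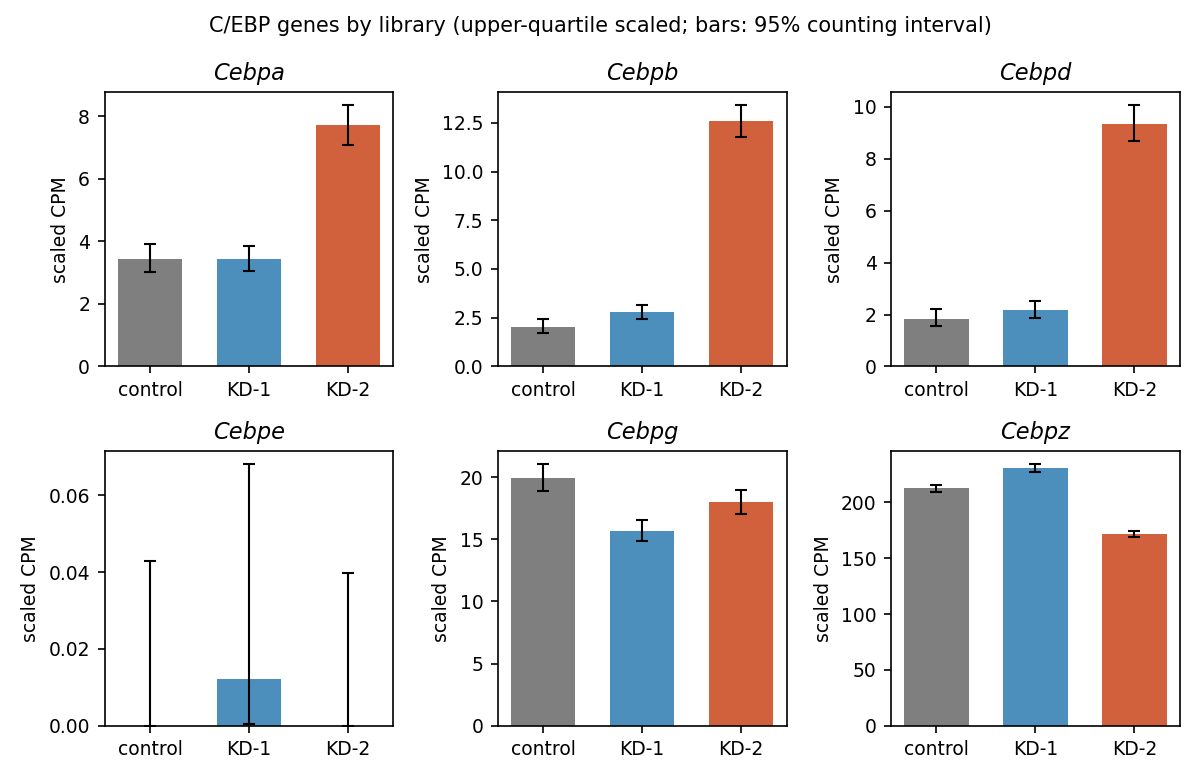
Upper-quartile scaled CPM on linear axes from 0 for each C/EBP gene in the control, KD-1 and KD-2 libraries (1 library each), with bars for the exact 95% counting interval, or up to 3 reads where the count is 0. Cebpa, Cebpb and Cebpd stand highest in KD-2 at 7.71, 12.6 and 9.35, Cebpg and Cebpz do not, and the only Cebpe read is in KD-1.

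**Figure D2:**
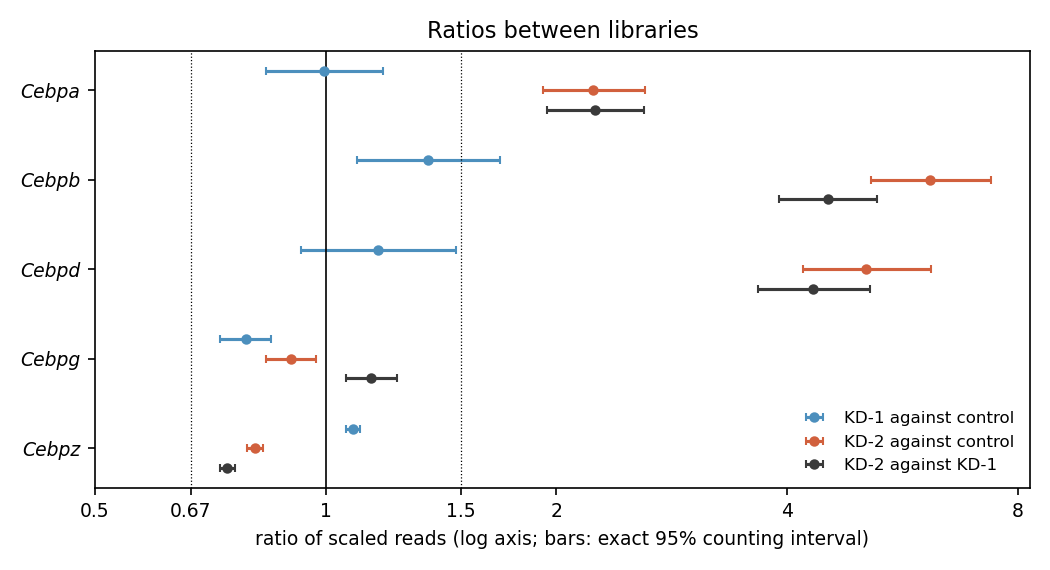
Ratio of scaled reads between libraries on a log axis for the 5 C/EBP genes averaging 10 or more reads, with exact 95% counting intervals as bars and dotted lines at 1.5-fold in either direction. For Cebpa, Cebpb and Cebpd, KD-2 lies above 1.5-fold against both control and KD-1, while every ratio of Cebpg and Cebpz lies inside the dotted lines.

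Past the fold in KD-2 against control were 3 of 5 members, all higher, namely Cebpa, Cebpb and Cebpd. Of all 16670 genes 17.1% were past the fold as higher there and 10.2% as lower, and the choice of the family rests on this comparison, so nothing is read from the count. In KD-1 against control 0 of 5 members were past the fold, beside 8.63% of genes higher and 5.62% lower. In KD-2 against KD-1 the same 3 members were past the fold as higher and none as lower, beside 16.1% of genes higher and 13.9% lower. Without Cebpb, the median log2 difference of the other 4 members from control was 0.06 (KD-1) and 0.50 (KD-2), and nothing is read from it either. Over all genes with the minimum mean it was 0.02 and -0.02, and it was -0.12 in KD-2 against KD-1 under this scaling. These counts stayed at 3 for KD-2 against control with a limit of 2-fold and under each of the 4 other planned scalings.

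The only comparison with a residual degree of freedom set both knockdown libraries, as 2 samples, against the control library. In this edgeR quasi-likelihood test 4 of 21164 genes with a read, or 0.0189%, had an FDR under 0.05, and the member Cebpd was not among them (unadjusted p-value 0.00301, FDR 1.00 by edgeR). Leaving out Cebpb, on which the family was selected, 0 members were called and 1 had an unadjusted p under 0.05, as did 293 of the 21164 genes. The Wald test of DESeq2 also called 0 of these members, with an unadjusted p under 0.05 for 1 of them and for 82 of all genes. The edgeR p-values of Cebpa, Cebpg and Cebpz were 0.177, 0.597 and 0.864, each with an FDR of 1.00. The knockdowns differed from each other by 2.25-fold to 4.52-fold in Cebpa, Cebpb and Cebpd, and the test takes its spread from these 2 libraries.

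Levels of different genes were compared per exon length, as scaled CPM per exon kilobase (RPKM). Cebpz was the highest member in every library with 45.6, 49.6 and 36.9. Among the bZIP members Cebpg led in control with 3.55, before Cebpb with 1.36, Cebpa with 1.31 and Cebpd with 0.493. Cebpb and Cebpa in control lay within each other's counting error. In KD-1 the order was the same, at 2.79, 1.85, 1.30 and 0.577. In KD-2 Cebpb led with 8.37, followed by Cebpg with 3.20, Cebpa with 2.92 and Cebpd with 2.50, and the counting intervals of Cebpg and Cebpa overlapped.

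The RPKM values of the bZIP members summed to 6.71, 6.53 and 17.0 in the control, KD-1 and KD-2 libraries. The KD-2 sum and shares include the Cebpb value that chose the family, so they are a description. Cebpg made up 52.9%, 42.7% and 18.8% of this sum, its smallest share in KD-2, although its own RPKM was lowest in KD-1. Cebpb made up 20.3%, 28.4% and 49.2%, Cebpd 7.34%, 8.84% and 14.7%, and Cebpa 19.5%, 19.9% and 17.2%. Because GENCODE gives Cebpd 3746 exon bases and RefSeq 2260, the shares were also computed with RefSeq lengths for the single-exon members. Cebpd then made up 11.6%, 13.9% and 22.3% and Cebpb 44.7% in KD-2, so Cebpb remained the largest part in KD-2 with either length. With its RefSeq length, Cebpd stood at 4.14 RPKM in KD-2, above Cebpa at 2.92. It was also above Cebpg at 3.20, a value that rests on the GENCODE exon length.

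**Figure D3:**
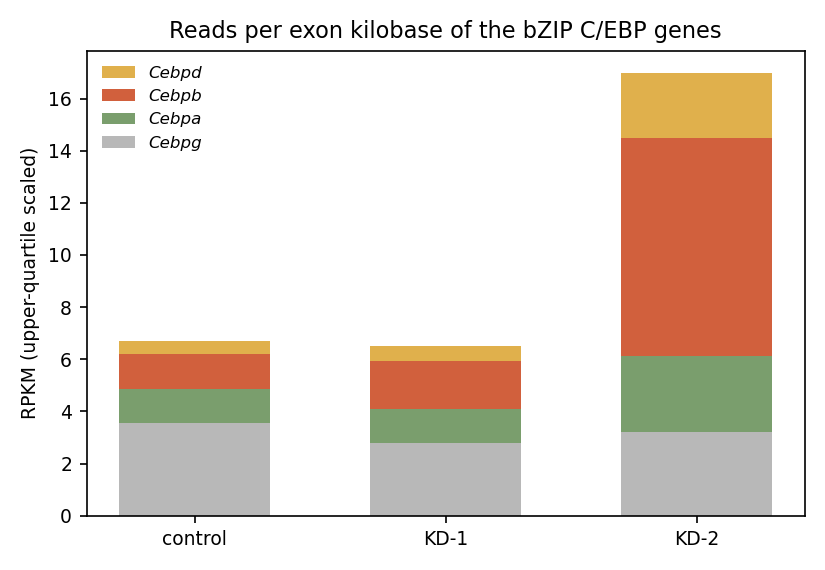
Stacked bars of upper-quartile RPKM (GENCODE exon lengths) of Cebpg, Cebpa, Cebpb and Cebpd in the 3 libraries, with Cebpe left out at 0 to 1 read. The stacks reach 6.71, 6.53 and 17.0 in the control, KD-1 and KD-2 libraries, and Cebpb takes up 49.2% of the KD-2 stack.

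Summed fibroblast markers were lowest in KD-1 and highest in KD-2. Cebpa had this order, with control and KD-1 within counting error. Cebpb and Cebpd shared the maximum in KD-2 but were lowest in control, where Cebpd was within counting error of KD-1. Per 1000 reads of the 12 fibroblast markers, Cebpb had 1.48, 4.30 and 4.96 reads, and Cebpd had 1.33, 3.34 and 3.69. On this measure, added after the data were seen, both knockdowns stood above control, with Cebpb at 2.91-fold (KD-1) and 3.36-fold (KD-2) and Cebpd at 2.50-fold and 2.77-fold. The marker sum enters every gene alike, so a gene with equal scaled CPM in all libraries would be at 2.14-fold (KD-1) and 0.546-fold (KD-2). KD-2 exceeded KD-1 by log2 differences of 0.21 for Cebpb and 0.14 for Cebpd on this summed scale. The collagen gene Col3a1 carried 56.5%, 48.2% and 59.8% of the summed marker reads. With the median marker as the scale instead, also added after the data were seen, these differences were 0.55 and 0.49, and neither scale put them past the fold. Cebpa had 2.49, 5.30 and 3.04 reads per 1000 fibroblast marker reads, so that KD-1 was highest and KD-2 was 1.22-fold above control, no longer past the fold. Cebpa in KD-2 lay below KD-1 by a log2 difference of -0.80 on the summed scale and of -0.46, within the fold, on the median scale. On the summed scale Cebpg and Cebpz were 1.68-fold and 2.32-fold above control in KD-1, and 0.492 and 0.441 of control in KD-2. A gene with equal scaled CPM would be at 2.14 and 0.546 there, so nothing is read from their passing the fold. On the median scale Cebpg was no longer past the fold in KD-1, at a log2 difference of 0.40. Scaled to the 10 ES cell markers instead, the log2 difference of KD-2 from control was 3.04 for Cebpb, 2.77 for Cebpd and 1.59 for Cebpa.

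Genes next to the members were compared because some overlap them, and reads that fit more than 1 gene were set aside as ambiguous, 1.45% to 1.65% of all reads per library. Cebpb shares 312 exon bases with Tmem189 on the opposite strand, Cebpd shares 562 with Spidr and Cebpz shares 171 with Cebpzos, and the strand setting of the counting is not given in the sources used here. Tmem189 had 475, 593 and 665 reads, a log2 difference of 0.38 in KD-2 against 2.62 for Cebpb. A530013C23Rik, which starts 758 bases after Cebpb, had 41, 54 and 75 reads and a log2 difference of 0.76 in KD-2. Spidr was lower in KD-2, with 2120, 2483 and 1765 reads and a log2 difference of -0.37, and Mzt2 on the other side of Cebpd was at -0.14. The neighbours of Cebpa were Cebpg, described above, and Slc7a10 with 1 to 5 reads. Pepd beside Cebpg was at 0.08 in KD-2, and Cebpzos and Ndufaf7 beside Cebpz were at -0.24 and -0.29. Beside Cebpe, 1700123O20Rik and Slc7a8 were at -0.12 and -0.31. Of the neighbours with the minimum mean, A530013C23Rik alone was past the fold in KD-2 apart from the members themselves, beside 17.1% of all genes higher and 10.2% lower.

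The genes most like Cebpb were taken by the distance between their pairs of log2 differences (KD-1 and KD-2, both against control), over 12743 genes averaging 100 or more reads. This likeness rests on 3 libraries with a common control and starts from Cebpb, whose KD-2 value chose the family, so it is a description. Nearest were Ier5l, at a distance of 0.31, H2afx, Gdf15 and Cebpd, each at 0.35, and 4930413G21Rik at 0.45. Ier5l had 69, 90 and 499 reads and 4930413G21Rik had 44, 61 and 388. Both of them and Gdf15 averaged 100 reads only through their KD-2 counts. Nearest to Cebpd were H2afx at 0.04, Gdf15 at 0.21 and Hist1h2bn at 0.22. Gdf15, a secreted stress-response cytokine, had 71, 112 and 370 reads, and H2afx, which encodes the histone variant H2AX, had 2092, 2942 and 11235. Cebpd is thus among the 5 genes nearest to Cebpb, while Cebpa lies apart through its smaller difference in KD-2.

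**Figure D4:**
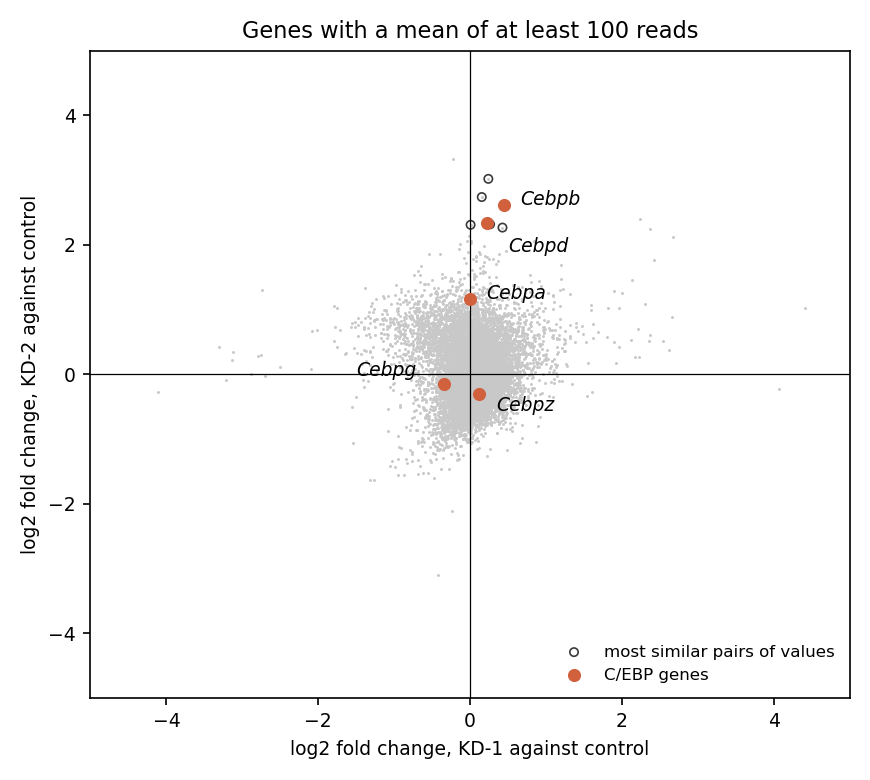
The log2 fold change in KD-2 against control (vertical) plotted over that in KD-1 against control (horizontal) for 12743 genes averaging 100 or more reads (grey points), with the C/EBP genes filled and the genes nearest to Cebpb or Cebpd as open circles. Cebpb at 0.44 and 2.62 and Cebpd at 0.23 and 2.34 lie near the upper edge of the cloud, and Cebpg and Cebpz lie within it.

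Members differed in gene structure. Cebpa, Cebpb and Cebpd, the members past the fold in KD-2, have 1 exon, Cebpe has 2 exon stretches, Cebpg 3 and Cebpz 16. The GC content of the longest transcript was 62.6% for Cebpa, 67.2% for Cebpb and 51.6% for Cebpd, against 43.3% for Cebpg and 43.4% for Cebpz, and 61.5% for Cebpe.

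The proteins that pair with C/EBP factors or belong to related bZIP families were represented by 12 genes, of which 10 had the minimum mean. In KD-2 6 of 10 were past the fold as higher and 1 as lower, with a median log2 difference of 0.64, beside 17.1% and 10.2% of all genes and their median of -0.02. In KD-1 0 were higher and 1 was lower, with a median of -0.16, beside 8.63% and 5.62% of all genes. In the same comparisons the fibroblast markers had medians of 0.78 (KD-2) and -0.73 (KD-1), and their part in the values of this and the following lists was not tested. Ddit3, encoding the stress factor CHOP that dimerizes with C/EBP proteins, had 561, 584 and 965 reads, which was 1.60-fold (1.44 to 1.78) above control in KD-2. Jdp2, a repressor that binds AP-1 sites, had 427, 417 and 988 reads and a log2 difference of 1.10 in KD-2. The circadian activator Dbp had 146, 139 and 310 reads and stood at 0.98, and Nfil3, a repressor at the same sites, had 732, 1008 and 1394 reads and stood at 0.82. Atf4, the main factor of the amino acid response and the partner of C/EBP gamma, was level with 10944, 12062 and 11909 reads, or 0.941-fold and 1.01-fold, and Atf3 had 846, 1119 and 1383 reads.

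Of 10 regulators of C/EBP proteins, all with the minimum mean, 2 were past the fold as higher and 0 as lower in KD-2 (median -0.01), beside 17.1% and 10.2% of all genes. In KD-1 0 were higher and 1 was lower, with a median of 0.02, beside 8.63% and 5.62%. Trib1 and Trib2 encode pseudokinases that bring C/EBP alpha to the ubiquitin ligase COP1. Trib2 had 2399, 1006 and 4376 reads, a log2 difference of -1.48 in KD-1, below control, but of 0.76 in KD-2, above it. Trib1 had 449, 560 and 739 reads and was at 0.61 in KD-2. Rps6ka1, encoding a kinase that phosphorylates C/EBP beta, was at -0.21 in KD-2, and the RNA-binding factor gene Celf1 was at -0.44.

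Of 17 upstream cytokine signalling genes, 14 had the minimum mean, with 2 higher and 1 lower in KD-2 and 1 higher and 0 lower in KD-1. All genes were 17.1% higher and 10.2% lower in KD-2, and 8.63% higher and 5.62% lower in KD-1. With library totals as the scaling, 5 instead of 3 cytokine signalling genes were past the fold in KD-2. Osmr, the oncostatin M receptor, had 3100, 2907 and 5681 reads and a log2 difference of 0.77 in KD-2. Its ligand gene Osm went the other way with 120, 100 and 58 reads and -1.15 in KD-2. Il6st, the signal-transducing subunit shared by the receptors for LIF and interleukin 6, was at -0.44 (KD-1) and 0.27 (KD-2), Lifr was at -0.26 and -0.41, and Stat3 was at 0.52 in KD-2, none past the fold.

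Among acute phase and inflammatory targets, which include Il6 as the former list does, 11 of 17 had the minimum mean, and in KD-2 5 of these were higher past the fold and 0 lower, with a median of 0.58, beside 17.1% and 10.2% of all genes and their median of -0.02. In KD-1 4 were higher and 1 was lower, with a median of 0.31, beside 8.63% and 5.62% of all genes and their median of 0.02. Hp, encoding the haemoglobin scavenger haptoglobin, had 185, 291 and 493 reads and stood at 0.42 (KD-1) and 1.30 (KD-2). Lcn2, encoding the iron-sequestering lipocalin 2, had 146, 293 and 299 reads and was higher in both knockdowns, at 1.71-fold and 1.90-fold. Serpina3n and the chemokine gene Cxcl5 were lower in KD-1, at -0.36 and -0.86, and higher in KD-2, at 0.87 and 0.58, and Ccl2 was at 0.48 in KD-2.

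Of 15 adipocyte genes, 13 had the minimum mean, with 5 higher and 0 lower in KD-2 and 3 higher and 0 lower in KD-1, and medians of 0.32 and 0.16. The shares of all genes were 17.1% higher and 10.2% lower in the former comparison and 8.63% and 5.62% in the latter. Plin1, encoding a coat protein of lipid droplets, had 43, 57 and 111 reads and stood at 1.25 in KD-2, and the related Plin4 had 3688, 4683 and 7515 reads and stood at 0.92. Dlk1, which marks preadipocytes, had 22, 60 and 46 reads. The lipid synthesis genes Fasn and Scd1 were at -0.20 and -0.10 in KD-2. Pparg, the adipocyte nuclear receptor that C/EBP factors switch on, was singled out after its values were seen and had 848, 857 and 1530 reads, or 0.863-fold and 1.68-fold.

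Few granulocyte or liver genes were measurable. Of 14 granulocyte genes 4 had the minimum mean, with 2 higher in KD-1 and 1 higher and 1 lower in KD-2, beside 8.63% of all genes higher in KD-1 and 17.1% higher and 10.2% lower in KD-2. The 2 granulocyte genes past the fold in KD-2 became 1 under each of the 6 alternatives run. S100a8, encoding a calcium-binding protein of neutrophils, had 43, 229 and 56 reads and was 4.55-fold above control in KD-1 and 1.21-fold in KD-2. Camp, encoding the antimicrobial cathelicidin, had 7, 28 and 25 reads, while Itgam and Csf3r were at -0.62 and -0.24 in KD-2. Of 11 liver genes 4 had the minimum mean, of which 1 was past the fold in KD-1, as higher, and 1 in KD-2, as lower, beside shares of 8.63% and 10.2% of all genes. Hnf4a, a hepatocyte nuclear receptor gene, had 46, 101 and 71 reads, Cps1 of the urea cycle had 106, 116 and 71, and Tdo2 was at -0.43 and -0.40.

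All 10 amino acid stress targets had the minimum mean, with 3 higher and 2 lower in KD-2 and 0 past the fold in KD-1. Of all genes, 17.1% were higher and 10.2% lower in KD-2, and 8.63% and 5.62% in KD-1. Asns, the asparagine synthetase gene, had 51870, 56722 and 35849 reads and stood at -0.64 in KD-2. Psat1 of serine synthesis had 24204, 25296 and 14672 reads and stood at -0.83, and Phgdh of the same pathway was at -0.41. Ddit4, an inhibitor of mTORC1 signalling, had 1927, 3084 and 3916 reads and stood at 0.45 (KD-1) and 0.92 (KD-2).

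In the edgeR quasi-likelihood test of both knockdowns against control, 0 genes of these 8 lists were called. An unadjusted p under 0.05 was reached by 3 granulocyte genes in edgeR, beside 293 of 21164 genes in all, and by 0 genes of the 8 lists in the Wald test of DESeq2. The granulocyte genes were Camp, S100a8 and Spi1, of which Spi1, named after its values were seen, had 1, 11 and 11 reads and lacked the minimum mean.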

How the data were processed

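RNA-Seq was performed on 3 libraries, control, NUP153 KD-1 and NUP153 KD-2. The authors trimmed reads with Trim Galore 0.4.1, mapped them with TopHat2 2.1.1 to mm10 (GRCm38), and deposited raw counts per gene. The methods name featureCounts, whereas the submitters' processing notes name HTSeq. Summary lines held 23.0% to 25.6% of reads, and these were left out. The spike-in normalization of the study was not used here.

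Counts were scaled by upper-quartile factors of edgeR 4.0.16 (R 4.3.3). With 1 library per condition no test was possible for single comparisons, and intervals are exact binomial. Both knockdowns were compared to control with the edgeR quasi-likelihood test after TMM normalization and Benjamini-Hochberg adjustment (FDR), and with DESeq2 1.42.0. These scripts were tested on simulated data. Intervals and figures were made in Python 3.11.15 (matplotlib 3.10.9, numpy 2.4.6, pandas 2.3.3, scipy 1.17.1). Of 24421 counted genes 24046 matched GENCODE by symbol, and all coordinates are GRCm38.

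The members and lists were chosen with earlier results of these data known. Named are all members, their nearest neighbours, the genes most like Cebpb and Cebpd, and from each list the 3 highest genes per exon kilobase and the 2 with the largest difference in KD-2. One gene that this rule names is not reported here, and the marker lists are given mainly by their sums. Ddit3, Pparg, Spi1, Pou5f1, Sox2, Ptprc and the share of Col3a1 were added outside this rule, after their values were seen. Alternatives were library totals, TMM or DESeq2 size factors as the scaling, a minimum mean of 10 reads before scaling or none, 5 added reads and 2-fold. Scaling to marker genes and the gene classes by exons and GC content were added after seeing the data.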

Additional observations from a re-analysis of the deposited data

Results flagged for a closer look

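Cebpz was higher than control in KD-1, at 1.09-fold, and lower in KD-2, at 0.808-fold, so that the knockdowns lay on opposite sides of the control. The log2 difference of KD-2 from KD-1 was -0.43. The counting intervals of both ratios excluded 1, but with 1 library per condition the difference between the knockdowns was not tested. Under the other library scalings and with 5 added reads it was -0.43 to -0.26. Scaled to the summed ES cell markers it turned to 0.14, with -0.02 (KD-1) and 0.12 (KD-2) against control. The median log2 difference of these markers was itself -0.40 in KD-2 against KD-1. Scaled to fibroblast markers, the Cebpz difference was -2.40 with their sum and -2.05 with their median.

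Trib2, whose product directs C/EBP alpha to degradation, also differed in opposite directions, by -1.48 (KD-1) and 0.76 (KD-2) on the log2 scale. The difference of KD-2 from KD-1 was 2.24, and it was likewise not tested. The 12 fibroblast markers moved the same way, 0.468-fold (KD-1) and 1.83-fold (KD-2), and their part in the Trib2 values was not tested.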

How the results depend on the processing

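The numbers of members past the fold were equal to those reported under TMM, DESeq2 size factors, library totals, a minimum mean before scaling, 5 added reads and a 2-fold limit. Without a minimum mean of reads the number in KD-1 was 1 instead of 0, being Cebpe with 1 read against 0 in control, and in KD-2 against KD-1 it was 3 higher and 1 lower, the latter again Cebpe. Over these alternatives the log2 difference of KD-2 from control was 2.58 to 2.77 for Cebpb, 2.30 to 2.49 for Cebpd, 1.14 to 1.32 for Cebpa, -0.15 to 0.01 for Cebpg and -0.31 to -0.15 for Cebpz. In KD-1 it was 0.38 to 0.46 for Cebpb, 0.16 to 0.24 for Cebpd and -0.07 to 0.01 for Cebpa. Library totals moved the median log2 difference of all genes to 0.14 in KD-2. Scaled to fibroblast markers, a choice made after the data were seen, 5 members were past the fold in KD-1, all higher. This scale moves all genes alike, and a gene with equal scaled CPM in all libraries would be at 2.14-fold (KD-1) and 0.546-fold (KD-2). On that scale 2 were higher and 2 lower in KD-2 against control, and 0 were higher and 3 lower in KD-2 against KD-1, where Cebpa turned to -0.80. With the median fibroblast marker in place of the sum, these were 4 higher in KD-1, 2 higher and 2 lower in KD-2, and 0 higher and 2 lower in KD-2 against KD-1, with Cebpa at -0.46. Scaled to ES cell markers, also added after the data were seen, 0 members were past the fold in KD-1, 3 in KD-2, all higher, and 4 in KD-2 against KD-1. The share of all genes past the fold was not computed on these marker scales, so nothing is read from the member counts on them. The numbers of list genes past the fold were within 1.5 times the reported ones in 162 recomputed values and not in 36, most of them with the 2-fold limit. Over the settings of the test of both knockdowns, the edgeR and DESeq2 p of Cebpd was 0.00301 to 0.0271, with 0 to 4 genes called. Leaving out a library in that test leaves no residual degree of freedom and gives the single comparisons. No paired analysis was possible because each condition has 1 library.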

Other observations

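Protein-coding genes were grouped by exon number and GC content, a comparison chosen after the values of the members were seen. In KD-2 against control, 35.2% of 423 genes with 1 exon, histone genes left out, were higher past the fold, with a median log2 difference of 0.25. Among 14805 genes with more exon stretches the share was 16.5% and the median was -0.02. For 676 genes with a transcript GC content of at least 60% the share was 48.5% and the median 0.57, against 15.9% and -0.03 for 14610 genes below 60%. Of 48 genes with 1 exon and at least 60% GC, the class of Cebpa and Cebpb, 58.3% were higher, with a median of 0.68. The 375 genes with 1 exon and less GC, the class of Cebpd, had 32.3% higher and a median of 0.20. In KD-1 the medians were -0.00 for genes with 1 exon and 0.13 for genes with at least 60% GC. Over the scalings tried, the share higher in KD-2 ran from 35.2% to 41.1% for genes with 1 exon and from 16.5% to 23.2% for the others. The part of exon number or GC content in the C/EBP values was not tested.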
